A study of Mus musculus with 2 samples.

Results

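Hox genes encode homeodomain transcription factors that record the position of a cell along the body and limb axes. The 39 genes described here are those whose symbol is Hox, a cluster letter from a to d and a number, and they are all of that form among the 33696 genes of the deposited count matrices. The cells came from the tibialis anterior (TA) muscle, a muscle of the lower hindlimb, of male mice. One library is labelled KO and one WT, and each pooled 10 TA muscles from 5 mice, so n = 1 library per genotype and no test between genotypes is possible. The subject of the study is Igf1, which encodes insulin-like growth factor I, in fibro-adipogenic progenitors (FAPs), the resident mesenchymal cells of muscle. The labels give the genotype as KO or WT alone, with no age, allele, Cre driver or deleted exon, call the cells of both libraries FAPs, and add "ND", which they do not spell out. Both libraries carry the same batch label, and both were digested whole muscle sorted for live cells with propidium iodide, with no sort for FAPs in the protocol. FAP-like cells were 896 of 17978 barcodes kept in the library labelled KO and 1292 of 10151 in the library labelled WT.

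Mammalian Hox genes lie in 4 clusters, HoxA to HoxD, and genes at the same place in different clusters form 13 paralogue groups. Low-numbered genes are expressed toward the head and high-numbered genes toward the tail and, in the limb bud, toward its far end. HoxA and HoxD genes pattern the limb skeleton, HoxC genes such as Hoxc10 and Hoxc11 are expressed in the hindlimb and not the forelimb bud, and many adult cells keep part of the code they had in the embryo.

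The paralogue group 4 genes show how cell types of one muscle differ in which copy they use. The 250 bases before the start of Hoxb4 (chromosome 11), Hoxc4 (chromosome 15) and Hoxd4 (chromosome 2) are printed from RefSeq on GRCm38.p6, at chr11:96318017-96318266, chr15:103034145-103034394 and chr2:74721728-74721977, all on the plus strand, with each CG dinucleotide in capitals.
Hoxb4: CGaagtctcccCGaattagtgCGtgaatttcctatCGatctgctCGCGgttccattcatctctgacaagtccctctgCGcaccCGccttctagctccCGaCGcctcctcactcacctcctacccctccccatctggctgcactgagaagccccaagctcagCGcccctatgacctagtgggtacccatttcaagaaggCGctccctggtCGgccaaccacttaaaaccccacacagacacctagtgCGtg
Hoxc4: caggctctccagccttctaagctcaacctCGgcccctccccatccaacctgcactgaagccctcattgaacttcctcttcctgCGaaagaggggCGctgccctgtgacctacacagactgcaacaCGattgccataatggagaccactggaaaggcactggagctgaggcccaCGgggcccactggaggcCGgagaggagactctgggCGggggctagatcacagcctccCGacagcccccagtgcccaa
Hoxd4: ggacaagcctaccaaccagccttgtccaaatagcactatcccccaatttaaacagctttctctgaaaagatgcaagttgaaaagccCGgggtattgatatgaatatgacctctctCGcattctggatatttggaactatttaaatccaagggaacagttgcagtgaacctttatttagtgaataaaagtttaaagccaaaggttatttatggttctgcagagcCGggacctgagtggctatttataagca
These windows hold 14, 8 and 3 CG dinucleotides in the order printed, against a median of 12.5 over 24 windows of 22 Hox genes and of 6 over 32851 windows of all genes. The letters TGATTNAT, a Hox and Pbx recognition motif searched on both strands, are in none of the 3 windows, in 2 of the 24 Hox windows (Hoxa2 and one of Hoxd11) and in 2.82% of all windows. In these libraries Hoxb4 had a level of 63.6 UMIs per 1000000 UMIs of the class and library (CPM) in KO-labelled and 68 CPM in WT-labelled endothelial-like cells, and Hoxc4 stood at 0.080 CPM in KO-labelled and 0.106 CPM in WT-labelled endothelial-like cells. In cells of the nerve sheath the order was the opposite, with Hoxc4 at 18.8 CPM in KO-labelled and 28.9 CPM in WT-labelled perineurial-like cells and no Hoxb4 UMI in either library. Hoxd4, the other copy with a window, was highest at 12.1 CPM in KO-labelled and 18.1 CPM in WT-labelled endothelial-like cells.

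The libraries held 19531 barcodes labelled KO and 11360 labelled WT, where the series' design text gives about 15000 retained cells per sample. They held 101570863 UMIs labelled KO and 38014703 UMIs labelled WT, where a UMI stands for 1 tagged transcript molecule. After filters 17978 KO-labelled barcodes (median 4212 UMIs) and 10151 WT-labelled barcodes (median 2934 UMIs) were kept. The libraries shared 61 barcode sequences. Cells were clustered without the Hox genes and without the noncoding genes of the Hox clusters, and 11 classes with at least 100 cells in each library were named "X-like" from marker genes. FAP-like cells, for example, had the FAP marker Pdgfra at 401 CPM labelled KO and 763 CPM labelled WT, and another 3375 KO-labelled and 344 WT-labelled barcodes fell in clusters left without a name. Each UMI is a 3′ tag, so levels were not divided by transcript length. Ranges in brackets after a level are exact 95% Poisson intervals and cover counting error only. Igf1, the gene the series is about, stood at 407 CPM in KO-labelled and 394 CPM in WT-labelled FAP-like cells, so its 3′ tag was not lower in KO-labelled FAP-like cells. It was at 76.5 CPM in KO-labelled and 236 CPM in WT-labelled tenocyte-like cells. Other classes differed too, with Igf1 at 28.9 CPM in KO-labelled and 76.5 CPM in WT-labelled macrophage-like cells. It was at 4.5 CPM in KO-labelled and 13.8 CPM in WT-labelled endothelial-like cells. In perineurial-like cells it was higher labelled KO, at 136 CPM against 72.2 CPM labelled WT. Whether the tag lies inside the deleted part is not given in the sources used here, and every direction between genotypes given here is one between libraries as labelled.

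Every resident tissue class of the muscle expressed Hox genes, and each class had its own mixture of the 4 clusters. Blood-vessel wall and muscle fibre classes had the highest summed level, the FAP-like class the lowest values of the 9 resident classes in both libraries, and the immune classes nearly none. The sum over the 39 genes was 388 CPM (374 to 402) in KO-labelled and 462 CPM (434 to 493) in WT-labelled pericyte-like cells. In endothelial-like cells, which line the vessels, it was 356 CPM (349.6 to 362) labelled KO and 429.7 CPM (417 to 443) labelled WT. FAP-like cells had 138 CPM (131 to 145) labelled KO and 186 CPM (177 to 196) labelled WT. The FAP-like intervals do not overlap those of the pericyte-like or endothelial-like class in either library, but they overlap those of perineurial-like cells labelled KO and of glial-like cells labelled WT. With levels scaled by TMM factors, which weigh each class by the genes it shares with the others, the order at the low end turned: perineurial-like cells had 110 CPM labelled KO and 177 CPM labelled WT and FAP-like cells 144 CPM labelled KO and 199 CPM labelled WT. Over all processing alternatives, glial-like cells labelled WT ran from 155 to 195 CPM and FAP-like cells labelled WT from 184 to 199 CPM. The lowest rank of the FAP-like class thus depends on the processing.

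Between these ends, the sum was 357 CPM in KO-labelled and 351 CPM in WT-labelled myofibre-like cells and 331 CPM in KO-labelled and 337 CPM in WT-labelled smooth muscle-like cells. In satellite cells, the stem cells of the muscle fibre, it was 234 CPM in KO-labelled and 297 CPM in WT-labelled satellite-like cells. It was 203 CPM in KO-labelled and 283 CPM in WT-labelled tenocyte-like cells, 141 CPM in KO-labelled and 239 CPM in WT-labelled perineurial-like cells and 197 CPM in KO-labelled and 189 CPM in WT-labelled glial-like cells. The last 3 classes are cells of tendon, of the nerve sheath and of Schwann type. In the immune classes it was 30.6 CPM in KO-labelled and 11 CPM in WT-labelled macrophage-like cells and 14.4 CPM in KO-labelled and 20.5 CPM in WT-labelled T cell-like cells.

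**Figure D1:**
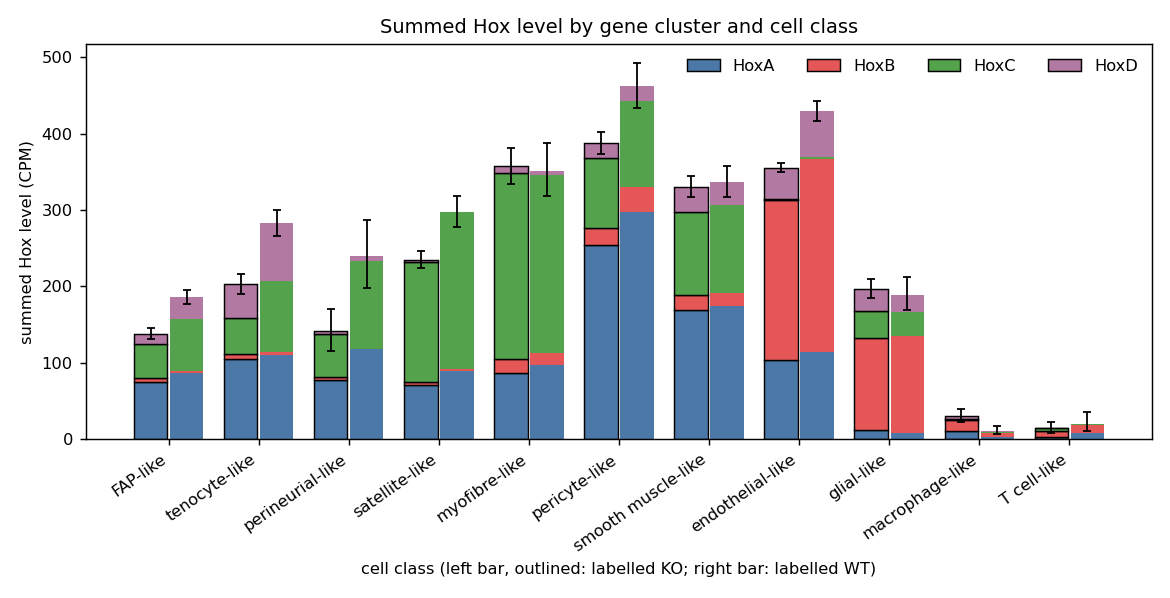
Summed level of the Hox genes (CPM) in 11 cell classes, split by Hox cluster, with the library labelled KO as the left, outlined bar and the library labelled WT as the right bar; error bars are 95% Poisson intervals of the sum (counting error only). HoxB makes up over 58% of the Hox UMIs of endothelial-like and glial-like cells and at most 3.0% of those of FAP-like cells.

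FAP-like cells used mainly HoxA and HoxC genes, most of their Hox UMIs came from the high-numbered groups, and HoxB was near 0. HoxA genes held 54.7% of the Hox UMIs of KO-labelled and 46.7% of those of WT-labelled FAP-like cells and HoxC genes 33% of the Hox UMIs of KO-labelled and 36.4% of those of WT-labelled FAP-like cells. HoxD genes held 9.32% of the Hox UMIs of KO-labelled and 15.3% of those of WT-labelled FAP-like cells, and HoxB genes 3.0% of the Hox UMIs of KO-labelled and 1.53% of those of WT-labelled FAP-like cells. Groups 9 to 13 held 51.5% of the Hox UMIs of KO-labelled and 59.4% of those of WT-labelled FAP-like cells. Of the 39 genes 11 reached 5 CPM in both libraries, 6 of HoxA, 4 of HoxC and 1 of HoxD, Hoxd8. The summed HoxB level was 4.15 CPM in KO-labelled and 2.85 CPM in WT-labelled FAP-like cells, beside a summed level of 344 CPM labelled KO and 191 CPM labelled WT for 10 endothelial markers in the same cells, none of them at 0. Of the HoxB UMIs, 34 of 46 labelled KO and 17 of 23 labelled WT lay in the sub-cluster led by the endothelial genes Aqp1, Flt1 and Cdh5, which held 40 KO-labelled and 20 WT-labelled cells and had a HoxB level of 48.9 CPM (33.9 to 68.4) labelled KO and 105 CPM (61.3 to 168) labelled WT. In the other FAP-like cells, 856 labelled KO and 1272 labelled WT, HoxB was at 1.15 CPM (0.596 to 2.02) labelled KO and 0.76 CPM (0.279 to 1.65) labelled WT.

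Hoxa10, which patterns the upper hindlimb, was one of the leading FAP-like genes at 14.8 CPM (12.6 to 17.2) in KO-labelled and 24.4 CPM (21.2 to 28.1) in WT-labelled FAP-like cells. Hoxc10, a hindlimb gene, stood at 15.2 CPM (13 to 17.7) in KO-labelled and 22.2 CPM (19.1 to 25.7) in WT-labelled FAP-like cells. For both genes the KO-labelled interval lies under the WT-labelled one. Hoxa9 was at 13.3 CPM in KO-labelled and 17 CPM in WT-labelled FAP-like cells. Hoxa10 was also present in other classes, at 28.3 CPM in KO-labelled and 34.7 CPM in WT-labelled tenocyte-like cells and 35.4 CPM in KO-labelled and 36.7 CPM in WT-labelled smooth muscle-like cells, and was at 1.57 CPM in KO-labelled and 2.01 CPM in WT-labelled endothelial-like cells. Hoxa11, which patterns the lower leg, was lower than Hoxa10 in FAP-like cells, with 9.01 CPM in KO-labelled and 12.4 CPM in WT-labelled FAP-like cells and 0.107 CPM in KO-labelled and 0 CPM in WT-labelled endothelial-like cells. Hoxa11 was highest at 14.1 CPM in KO-labelled and 20.3 CPM in WT-labelled pericyte-like cells, and it was at 0 to 12.8 CPM in the 10 classes other than pericyte-like cells, over both libraries. FAP-like and tenocyte-like cells were thus above endothelial-like cells in both genes and both libraries.

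The FAP-like cells were not uniform. Among the 8 sub-clusters listed with values, summed Hox levels ran from 91.5 CPM labelled KO and 119 CPM labelled WT in the sub-cluster led by Sbspon and Coch to 200.3 CPM labelled KO and 222 CPM labelled WT in the one led by Comp and Prg4, which encode proteins of cartilage and joint lining, and 162 CPM (127 to 204) labelled KO and 233 CPM (171 to 310.0) labelled WT in the one led by Gria4 and Fmo2. The last held 45 KO-labelled and 38 WT-labelled cells, and its intervals overlap the levels of the Comp and Prg4 sub-cluster in both libraries. The share of groups 9 to 13 ranged from 36.7% to 61.1% labelled KO and from 36.1% to 64.1% labelled WT. One sub-cluster, led by F2rl1 and Thbs1, held 261 KO-labelled and 8 WT-labelled cells and had 111 CPM (100.1 to 123) labelled KO and 179 CPM (85.6 to 328) labelled WT.

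Tenocyte-like cells had HoxA and HoxC levels at or above those of FAP-like cells and more HoxD. HoxD genes held 22% of the Hox UMIs of KO-labelled and 26.8% of those of WT-labelled tenocyte-like cells. Hoxd8 was at 17.4 CPM in KO-labelled and 24.4 CPM in WT-labelled tenocyte-like cells, and Hoxd9, which acts with Hoxa9 in the upper limb, was at 10.9 CPM in KO-labelled and 20.2 CPM in WT-labelled tenocyte-like cells and at 0 to 7.74 CPM in the 10 classes other than tenocyte-like cells, over both libraries. Hoxd11, which patterns the lower limb with Hoxa11, was detected mainly here, at 3.37 CPM (1.96 to 5.4) in KO-labelled and 12.6 CPM (9.19 to 16.9) in WT-labelled tenocyte-like cells. No other class of those used had more than 3.72 CPM of Hoxd11 in either library, and Hoxd10 likewise was highest at 3.57 CPM in KO-labelled and 7.0 CPM in WT-labelled tenocyte-like cells. Within the class, the cluster led by Wif1 and Chad (54 KO-labelled and 127 WT-labelled cells) had a HoxC level of 20 CPM in KO-labelled and 97.2 CPM in WT-labelled cells, while the cluster led by Thbs4 and Col22a1 had 50.6 CPM in KO-labelled and 90.7 CPM in WT-labelled cells.

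Perineurial-like cells, of the sheath around nerves, had a lower-numbered profile than FAP-like and tenocyte-like cells. Hoxa7, a trunk-level gene, was their highest member, at 28.2 CPM (17.5 to 43.2) in KO-labelled and 49.5 CPM (31.7 to 73.7) in WT-labelled perineurial-like cells. It was at 0 to 38.6 CPM in the 10 classes other than perineurial-like cells, over both libraries; KO-labelled pericyte-like cells were above it at 33.9 CPM. Groups 9 to 13 held 23.8% of the Hox UMIs of KO-labelled and 36.2% of those of WT-labelled perineurial-like cells, and Hoxa11 had no UMI in either library. This class rests on 105 Hox UMIs labelled KO and 116 labelled WT, so its single-gene values carry wide intervals.

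HoxC genes led in the muscle lineage. HoxC genes held 67.1% of the Hox UMIs of KO-labelled and 69% of those of WT-labelled satellite-like cells, and 68.1% of the Hox UMIs of KO-labelled and 66.2% of those of WT-labelled myofibre-like cells. HoxB genes held 1.97% of the Hox UMIs of KO-labelled and 0.702% of those of WT-labelled satellite-like cells, and HoxD genes 0.812% of the Hox UMIs of KO-labelled and 0.117% of those of WT-labelled satellite-like cells. The neighbouring genes Hoxc9, Hoxc10 and Hoxc11 led in satellite-like cells, where Hoxc9 stood at 34.6 CPM in KO-labelled and 37.6 CPM in WT-labelled satellite-like cells, Hoxc10 at 38.4 CPM in KO-labelled and 46.6 CPM in WT-labelled satellite-like cells and Hoxc11 at 37.6 CPM in KO-labelled and 52.5 CPM in WT-labelled satellite-like cells. Hoxc11, a hindlimb gene, was at 0 to 14.6 CPM in the 10 classes other than satellite-like cells, over both libraries, so satellite-like cells were its highest class in both libraries.

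In myofibre-like cells, named from Acta1 and other contractile genes, one gene carried most of the signal. Hoxc10 reached 197 CPM (180.3 to 215) in KO-labelled and 196 CPM (172 to 224) in WT-labelled myofibre-like cells. These are the highest levels of any Hox gene in any class used, and Hoxc10 was at 0 to 46.6 CPM in the 10 classes other than myofibre-like cells, over both libraries. The UMIs were spread over 282 KO-labelled and 155 WT-labelled cells, and the largest single cell held 2.0% labelled KO and 2.19% labelled WT of them. With TMM factors the level was 315 CPM labelled KO and 275 CPM labelled WT. In 2 of the 3 fibre clusters it was near the class level, at 219.9 CPM in KO-labelled and 212 CPM in WT-labelled cells of the cluster led by Myh4 and Ckm and 193 CPM in KO-labelled and 217 CPM in WT-labelled cells of the cluster led by Tnnt3 and Mylpf. In the third, led by Ttn and Myh1, Hoxc10 was lower, at 40.2 CPM in KO-labelled and 18.8 CPM in WT-labelled cells.

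Hoxa13, a gene of the far end of the limb, was also highest in the fibre class, at 9.09 CPM (5.76 to 13.6) in KO-labelled and 7.75 CPM (3.55 to 14.7) in WT-labelled myofibre-like cells. It was at 0 to 2.5 CPM in the 10 classes other than myofibre-like cells, over both libraries. Its counts were 23 UMIs labelled KO and 9 labelled WT. Another fibre cluster, led by Ttn, differed: it held 54 KO-labelled and 41 WT-labelled cells and had a HoxB level of 161 CPM in KO-labelled and 160.1 CPM in WT-labelled cells, against 1.2 CPM in KO-labelled and 0 CPM in WT-labelled cells of the cluster led by Myh4 and Ckm. In the myofibre-like class 10 endothelial markers summed to 1199 CPM labelled KO and 912 CPM labelled WT, and their part in the HoxB signal of the Ttn cluster was not tested.

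Pericyte-like and smooth muscle-like cells, the contractile cells around capillaries and larger vessels, combined low and high groups of HoxA with HoxC. HoxA genes held 65.5% of the Hox UMIs of KO-labelled and 64.3% of those of WT-labelled pericyte-like cells and 51.2% of the Hox UMIs of KO-labelled and 51.6% of those of WT-labelled smooth muscle-like cells. Hoxa3, a gene of the neck level in the embryo, was highest at 73.9 CPM (67.9 to 80.2) in KO-labelled and 72.5 CPM (61.3 to 85) in WT-labelled pericyte-like cells. Hoxa9 was highest in the same class, at 52.4 CPM (47.4 to 57.9) in KO-labelled and 75.9 CPM (64.4 to 88.7) in WT-labelled pericyte-like cells, and stood at 46.1 CPM in KO-labelled and 43.9 CPM in WT-labelled smooth muscle-like cells. Hoxa9 was at 4.98 CPM in KO-labelled and 6.15 CPM in WT-labelled endothelial-like cells, so neighbouring cell layers of the vessel differed in it in both libraries. Hoxa5 stood at 34.4 CPM in KO-labelled and 30.9 CPM in WT-labelled pericyte-like cells, close to its level in the endothelial-like class, and Hoxc6, a trunk-level gene, stood at 28 CPM in KO-labelled and 35.3 CPM in WT-labelled pericyte-like cells and 32 CPM in KO-labelled and 32.9 CPM in WT-labelled smooth muscle-like cells.

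Within the pericyte-like and satellite-like classes Hoxa3 moved with a second quantity, the share of UMIs from genes that span over 100 kb. The pericyte-like cluster led by Plcl1 had Hoxa3 at 122 CPM in KO-labelled and 139 CPM in WT-labelled cells, with a long-gene share of 42.3% in KO-labelled and 45% in WT-labelled cells. The other pericyte-like cluster, led by Kcnj8, had Hoxa3 at 68.6 CPM in KO-labelled and 60.1 CPM in WT-labelled cells, with a long-gene share of 25.4% in KO-labelled and 25.8% in WT-labelled cells. The same held between the satellite-like clusters, where Hoxa3 was at 35.6 CPM in KO-labelled and 62.9 CPM in WT-labelled cells of the cluster led by Tenm4, long-gene share 38.5% in KO-labelled and 42.9% in WT-labelled cells, and at 14.8 CPM in KO-labelled and 14 CPM in WT-labelled cells of the cluster led by Gal and Myf5, long-gene share 19.8% in KO-labelled and 21.2% in WT-labelled cells. Hoxc10 ran the other way there, at 10.4 CPM in KO-labelled and 29.5 CPM in WT-labelled cells of the Tenm4 cluster and 45.8 CPM in KO-labelled and 50.3 CPM in WT-labelled cells of the Gal cluster. In the GENCODE M21 annotation Hoxa3 spans 44275 bp and covers Hoxa4, Hoxa5 and Hoxa6, Hoxc5 spans 49987 bp and covers Hoxc6, Hoxc8, Hoxc9 and Hoxc10, and Hoxd3 overlaps Hoxd4. How the authors' counting divided reads among those genes is not given in the sources used here, so levels of these overlapping genes are uncertain, and the part of the long-gene share in the Hoxa3 levels was not tested.

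Endothelial-like cells were led by HoxB, with HoxC near 0. HoxB genes held 58.9% of the Hox UMIs of KO-labelled and 58.9% of those of WT-labelled endothelial-like cells, and HoxC genes 0.36% of the Hox UMIs of KO-labelled and 0.37% of those of WT-labelled endothelial-like cells. In level, HoxB stood at 209.5 CPM (205 to 214) in KO-labelled and 253 CPM (243 to 263) in WT-labelled endothelial-like cells, and HoxC at 1.28 CPM (0.943 to 1.7) in KO-labelled and 1.59 CPM (0.89 to 2.62) in WT-labelled endothelial-like cells. The HoxC value rests on 48 UMIs labelled KO and 15 UMIs labelled WT over the whole class. Groups 9 to 13 held 9.1% of the Hox UMIs of KO-labelled and 10.1% of those of WT-labelled endothelial-like cells, most of it from Hoxb9.

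Hoxb4, which expands mouse blood stem cells when overexpressed, was the highest endothelial-like gene, at 63.6 CPM (61.1 to 66.2) in KO-labelled and 68 CPM (62.8 to 73.4) in WT-labelled endothelial-like cells. Among the HoxB genes Hoxb6 followed at 33.7 CPM (31.9 to 35.6) in KO-labelled and 51.2 CPM (46.7 to 56) in WT-labelled endothelial-like cells. Hoxa5 was above Hoxb6 in KO-labelled endothelial-like cells, at 35.3 CPM, and Hoxa3, Hoxa5 and Hoxa7 each reached 10 CPM in both libraries. Hoxb3 was at 22.5 CPM in KO-labelled and 24.3 CPM in WT-labelled endothelial-like cells, at 13.7 CPM in KO-labelled and 17.4 CPM in WT-labelled glial-like cells, and at 0 to 5.8 CPM in the 9 classes other than endothelial-like and glial-like cells, over both libraries. Hoxb5, which activates the VEGF receptor gene Kdr in mouse cells, was at 20.4 CPM in KO-labelled and 19.7 CPM in WT-labelled endothelial-like cells. Hoxb2 was at 16.9 CPM in KO-labelled and 14.4 CPM in WT-labelled endothelial-like cells and Hoxb8 at 11.9 CPM in KO-labelled and 18 CPM in WT-labelled endothelial-like cells. All 8 HoxB genes from Hoxb2 to Hoxb9 were thus above 10 CPM in both libraries. Hoxb7 was at 19.8 CPM in KO-labelled and 31.3 CPM in WT-labelled endothelial-like cells, and Hoxb9 at 20.6 CPM in KO-labelled and 26.2 CPM in WT-labelled endothelial-like cells. Outside the endothelial-like and glial-like classes no HoxB gene exceeded 8.70 CPM in either library among the classes used.

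HoxB levels differed between endothelial-like clusters. The cluster led by Cytl1, Clu and Bmx, the last a gene of arteries, had a HoxB level of 319.5 CPM in KO-labelled and 327 CPM in WT-labelled cells. The cluster led by Selp, Sele and Plvap, the first a gene of venules, had 261 CPM in KO-labelled and 279.6 CPM in WT-labelled cells, and the cluster led by Car4, a gene of capillaries, had 150.1 CPM in KO-labelled and 183 CPM in WT-labelled cells. Hoxb4 was also higher in the first, with 107 CPM in KO-labelled and 101 CPM in WT-labelled cells of the Cytl1 cluster and 35.6 CPM in KO-labelled and 37.6 CPM in WT-labelled cells of the Car4 cluster. Hoxa9 was also higher in the Cytl1 cluster, at 12.7 CPM in KO-labelled and 8.93 CPM in WT-labelled cells, than in the Car4 cluster, at 1.19 CPM in KO-labelled and 6.19 CPM in WT-labelled cells, whereas Hoxa3 was lower in the Cytl1 cluster, at 24.7 CPM in KO-labelled and 25.6 CPM in WT-labelled cells, than in the Car4 cluster, at 28.2 CPM in KO-labelled and 43.8 CPM in WT-labelled cells. The Poisson intervals of the Cytl1 and Car4 clusters overlap for Hoxa9 labelled WT and for Hoxa3 labelled KO. The order of the Cytl1, Selp and Rbp7 clusters over the Slc1a1 and Car4 clusters was the same in both libraries.

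**Figure D2:**
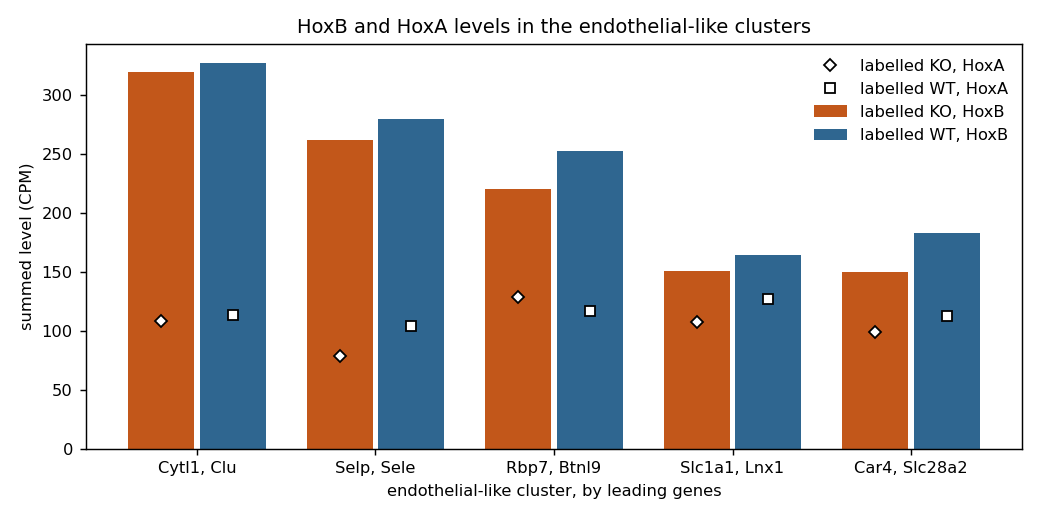
Summed HoxB level (bars, CPM) and HoxA level (white symbols, CPM) in the 5 endothelial-like clusters, named by leading genes, for the library labelled KO (left bar) and the library labelled WT (right bar). HoxB is highest in the Cytl1 cluster, at 319.5 CPM labelled KO and 327 CPM labelled WT, and lowest labelled KO in the Car4 cluster, at 150.1 CPM, and lowest labelled WT in the Slc1a1 cluster, at 165 CPM, while HoxA stays between 78.8 and 129 CPM.

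Glial-like cells, which include the Schwann cells that wrap nerve fibres, were the other class led by HoxB, with HoxC where the endothelial-like class had almost none and with little HoxA. HoxB genes held 61.3% of the Hox UMIs of KO-labelled and 67.4% of those of WT-labelled glial-like cells, HoxC genes held 17.8% of the Hox UMIs of KO-labelled and 16.1% of those of WT-labelled glial-like cells, and HoxA genes 6.3% of the Hox UMIs of KO-labelled and 4.28% of those of WT-labelled glial-like cells. Hoxb4 was the highest member, at 32.7 CPM (27.8 to 38.4) in KO-labelled and 41.1 CPM (31.8 to 52.3) in WT-labelled glial-like cells. Hoxb2, which patterns the hindbrain and its neural crest, was at 17.3 CPM in KO-labelled and 17.4 CPM in WT-labelled glial-like cells, close to its endothelial-like level, and Hoxb7 was at 21.8 CPM in KO-labelled and 21.2 CPM in WT-labelled glial-like cells. Hoxc6 was at 13.1 CPM in KO-labelled and 14.3 CPM in WT-labelled glial-like cells. Hoxa9, Hoxa10 and Hoxa11 were at or under 1.87 CPM in both libraries. Among the glial-like clusters, the one led by Tafa1 and Bche had a summed Hox level of 227 CPM in KO-labelled and 221 CPM in WT-labelled cells, and the one led by Cadm2 and Gfra3 had 133 CPM in KO-labelled and 122 CPM in WT-labelled cells.

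Immune classes gave the low end. In macrophage-like cells no Hox gene reached 5 CPM in both libraries, and in T cell-like cells one did, Hoxb4, at 5.6 CPM (2.25 to 11.5) in KO-labelled and 5.12 CPM (1.06 to 15) in WT-labelled T cell-like cells, from 7 UMIs labelled KO and 3 UMIs labelled WT. The macrophage-like sum was 30.6 CPM (23 to 39.9) in KO-labelled and 11 CPM (6.53 to 17.4) in WT-labelled macrophage-like cells, and under the processing alternatives it ran from 26.4 to 55.2 CPM labelled KO and from 2.78 to 18.1 CPM labelled WT. In the same cells 10 endothelial markers summed to 609 CPM labelled KO and 127 CPM labelled WT, and 11 FAP markers to 758 CPM labelled KO and 157 CPM labelled WT; the part of these transcripts in the Hox sum was not tested. Monocyte-like cells, below the 100-cell limit in the library labelled WT, had Hoxb4 at 13.4 CPM in KO-labelled and 20.8 CPM in WT-labelled monocyte-like cells, where it made up 43.2% (31.8 to 55.3, exact binomial) of 74 Hox UMIs labelled KO and 69.2% (38.6 to 90.9) of 13 labelled WT. Hoxb4 made up 17.9% labelled KO and 15.8% labelled WT of the Hox UMIs of endothelial-like cells.

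**Figure D3:**
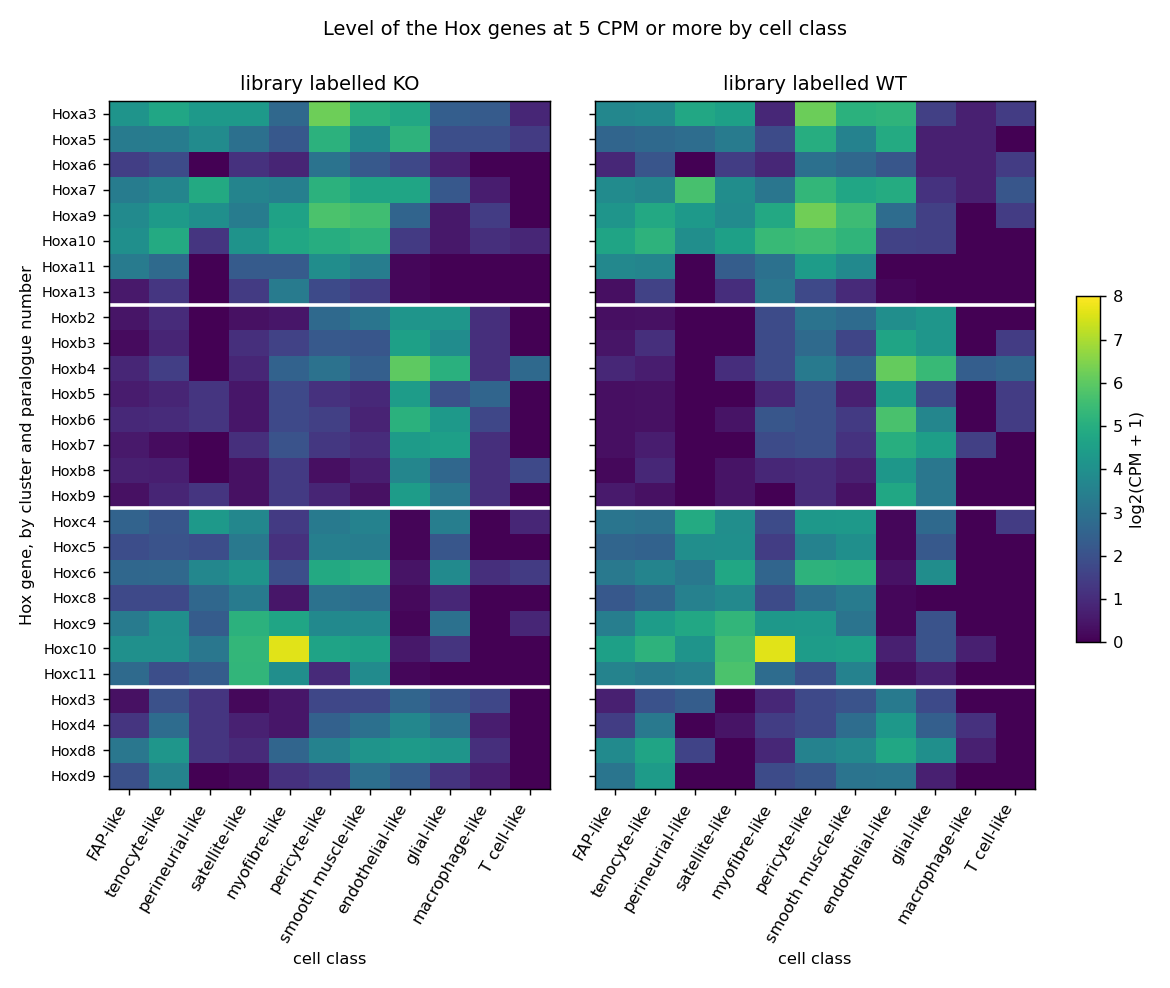
Level as log2(CPM + 1) in 11 cell classes of the 27 Hox genes that reached 5 CPM in both libraries of at least 1 class, for the library labelled KO (left panel) and the library labelled WT (right panel); white lines part the HoxA, HoxB, HoxC and HoxD clusters. Hoxc10 in myofibre-like cells is the brightest cell of both panels (197 CPM labelled KO, 196 CPM labelled WT), and no HoxB gene exceeds 8.70 CPM outside the endothelial-like and glial-like columns.

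Genes that reached 20 CPM in some class differed in how widely they were used. Hoxa3 was at 0.612 to 35.6 CPM in the 10 classes other than pericyte-like cells, over both libraries, and Hoxa5 at 0 to 13.5 CPM in the 9 classes other than pericyte-like and endothelial-like cells, over both libraries. Hoxa9 was at 0 to 27.6 CPM in the 9 classes other than pericyte-like and smooth muscle-like cells, over both libraries, and Hoxa10 at 0 to 41.3 CPM in the 9 classes other than smooth muscle-like and pericyte-like cells, over both libraries. The HoxB genes were narrower. Hoxb4 was at 0 to 8.7 CPM in the 9 classes other than endothelial-like and glial-like cells, over both libraries, Hoxb6 at 0 to 3.45 CPM in the 9 classes other than endothelial-like and glial-like cells, over both libraries, Hoxb7 at 0 to 3.16 CPM in the 9 classes other than endothelial-like and glial-like cells, over both libraries and Hoxb9 at 0 to 1.58 CPM in the 9 classes other than endothelial-like and glial-like cells, over both libraries. Hoxb5 alone among them was low in glial-like cells too, at 3.0 CPM in KO-labelled and 2.49 CPM in WT-labelled glial-like cells, and was at 0 to 5.09 CPM in the 9 classes other than endothelial-like and glial-like cells, over both libraries. Of the HoxC genes, Hoxc4 was at 0 to 18.8 CPM in the 10 classes other than perineurial-like cells, over both libraries, Hoxc6 at 0 to 14.3 CPM in the 8 classes other than pericyte-like and smooth muscle-like and satellite-like cells, over both libraries and Hoxc9 at 0 to 26.8 CPM in the 10 classes other than satellite-like cells, over both libraries. Hoxd8 was at 19.6 CPM in KO-labelled and 26.2 CPM in WT-labelled endothelial-like cells, and at 0 to 17.1 CPM in the 9 classes other than endothelial-like and tenocyte-like cells, over both libraries.

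By paralogue group, the classes differed in the share that the high-numbered groups held. Groups 9 to 13 held 85.3% of the Hox UMIs of KO-labelled and 87.3% of those of WT-labelled myofibre-like cells and 60.9% of the Hox UMIs of KO-labelled and 59.9% of those of WT-labelled satellite-like cells. The same groups held 52.3% of the Hox UMIs of KO-labelled and 63.5% of those of WT-labelled tenocyte-like cells and 9.24% of the Hox UMIs of KO-labelled and 10.5% of those of WT-labelled glial-like cells. Group 10 was the largest group in FAP-like cells, at 30 CPM in KO-labelled and 48 CPM in WT-labelled FAP-like cells, and group 4 in endothelial-like cells, at 79.3 CPM in KO-labelled and 90.1 CPM in WT-labelled endothelial-like cells. Pericyte-like cells had 2 peaks, group 3 at 79.8 CPM in KO-labelled and 80.7 CPM in WT-labelled pericyte-like cells and group 9 at 67.8 CPM in KO-labelled and 99 CPM in WT-labelled pericyte-like cells. Group 12 was near 0 throughout and did not exceed 0.294 CPM in any class used. Of the 39 genes 27 reached 5 CPM in both libraries of at least 1 class, and 12 did not in any. Among those 12, Hoxa2 had its highest class at 2.88 CPM in KO-labelled and 4.24 CPM in WT-labelled endothelial-like cells, and Hoxa4 at 3.47 CPM in KO-labelled and 3.92 CPM in WT-labelled endothelial-like cells. Hoxd10 and Hoxd11 reached it in WT-labelled tenocyte-like cells, while Hoxc13 stayed at or under 1.47 CPM in every class used. Over all deposited barcodes, before filters, Hoxb13 had 0 UMIs, Hoxd12 had 0 labelled KO and 1 labelled WT, and Hoxb1, Hoxc12, Hoxd1 and Hoxd13 had at most 6 in either library. For Hoxb13 the limit that a count of 0 allows is 3 UMIs in each library.

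**Figure D4:**
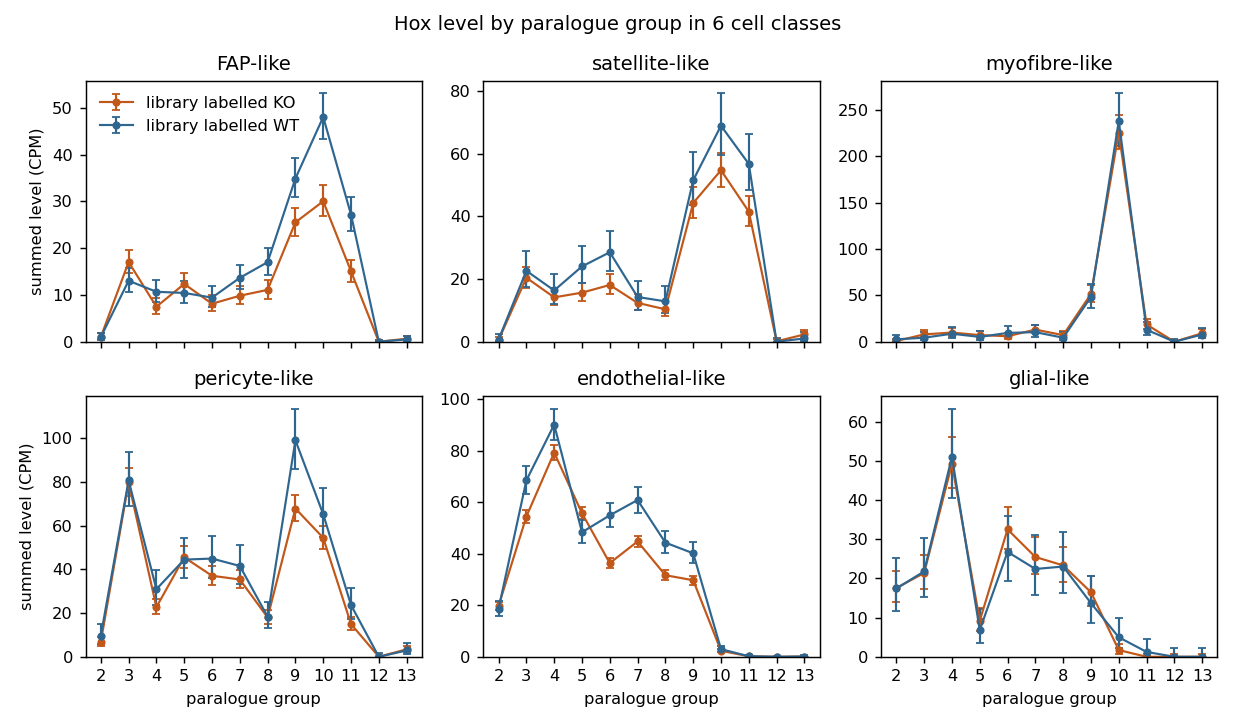
Summed level (CPM, linear axes that differ between panels) of the Hox genes of paralogue groups 2 to 13 in 6 cell classes; orange points are the library labelled KO, blue points the library labelled WT, bars are 95% Poisson intervals. Group 10 dominates myofibre-like cells (225 CPM labelled KO, 238 CPM labelled WT), and groups 10 to 13 lie at or under 4.98 CPM in endothelial-like and glial-like cells.

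FAP-like and endothelial-like cells were compared in the 12 Hox genes that passed a floor on level. A gene passed by its level in either class, here and in the class pairs below. The floor thus admits genes high in a single class, and the counts do not measure how often Hox genes differ. Of 12 Hox genes past the floor (20 CPM in at least one of the groups and 100 UMIs), 2 were at least 2-fold higher in FAP-like cells in both libraries, Hoxa10 and Hoxc10, against 16.2% of 8079 genes. Another 8 were at least 2-fold lower, Hoxa5, Hoxa7, Hoxb3, Hoxb4, Hoxb5, Hoxb6, Hoxb7 and Hoxb9, against 15.2% of all genes. These 8 entered through their endothelial-like level, since in FAP-like cells Hoxa10 and Hoxc10 alone passed the floor. For Hoxc10 the log2 ratio, with 1 CPM added to each level, was 3.51 in the KO-labelled and 3.83 in the WT-labelled library, and for Hoxb4 it was -5.16 in the KO-labelled and -5.21 in the WT-labelled library. Genes under the floor are not in these counts, though most HoxC genes were under it. With all genes summed, the log2 ratio was 4.35 labelled KO and 4.73 labelled WT for HoxC. It was -5.35 labelled KO and -6.04 labelled WT for HoxB, and -0.45 labelled KO and -0.39 labelled WT for HoxA. For HoxD it was -1.60 labelled KO and -1.07 labelled WT. Pericyte-like over endothelial-like cells had 6 higher (background 14.1%) and 6 lower (14.9%) of 15 genes past the floor. Glial-like over endothelial-like cells had 0 higher (18.5%) and 5 lower (14.2%) of 10. No HoxC gene passed the floor there, yet the log2 ratio of the HoxC sum was 3.99 labelled KO and 3.60 labelled WT. The sums of the other clusters were lower in glial-like cells, at -2.96 labelled KO and -3.66 labelled WT for HoxA. They were at -0.79 labelled KO and -0.98 labelled WT for HoxB, and at -0.51 labelled KO and -1.37 labelled WT for HoxD.

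Along the muscle lineage, myofibre-like over satellite-like cells had 1 gene higher, Hoxc10 (log2 ratio 2.33 in the KO-labelled and 2.05 in the WT-labelled library), against a background of 20.1%. Another 3 were lower, Hoxa3, Hoxc6 and Hoxc11, of 7 past the floor, against 43.2% of all genes, so a lower value there is common. Tenocyte-like over FAP-like cells had 1 gene higher of 7, Hoxd9 (log2 ratio 1.58 in the KO-labelled and 1.28 in the WT-labelled library; background 5.76%), and 0 lower (8.53%). Hoxd9 passed the floor only through its 20.2 CPM in WT-labelled tenocyte-like cells. With 1 library per genotype these calls are sizes, repeated in both libraries, and carry no p-value.

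Between the libraries, 1 Hox gene in 1 class was 2-fold apart, and the summed level was lower labelled KO in 6 of the 11 classes by more than counting error. The log2 ratio of the KO-labelled over the WT-labelled sum was -0.43 (-0.53 to -0.33) in FAP-like cells, with 95% intervals from the exact conditional binomial. It was -0.48 (-0.60 to -0.35) in tenocyte-like, -0.76 (-1.16 to -0.37) in perineurial-like and -0.34 (-0.46 to -0.22) in satellite-like cells. It was -0.25 (-0.36 to -0.15) in pericyte-like and -0.27 (-0.32 to -0.22) in endothelial-like cells. The interval spanned 0 in 3 resident classes, where the ratio was 0.02 (-0.15 to 0.19) in myofibre-like, -0.03 (-0.13 to 0.08) in smooth muscle-like and 0.06 (-0.13 to 0.25) in glial-like cells. It was 1.39 (0.68 to 2.33) in macrophage-like cells, higher labelled KO on low counts, and -0.48 (-1.64 to 0.68) in T cell-like cells. The median ratio of all genes past the floor lay between -0.03 and 0.09 in the 11 classes. The libraries also differed in depth (median 12142 UMIs labelled KO and 5937 UMIs labelled WT in FAP-like cells) and in the mix of FAP-like sub-clusters. Without the F2rl1 sub-cluster the FAP-like ratio was -0.30, and with cells thinned to 2000 UMIs it was -0.29.

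In FAP-like cells 2 of the 39 Hox genes passed the floor and 0 were 2-fold apart, where 6.17% of 7132 genes were. Hoxa10 had a log2 ratio of -0.69 (-1.03 to -0.42) and Hoxc10 of -0.52 (-0.86 to -0.23). Tenocyte-like cells had the one Hox gene called, Hoxc10, at 15.1 CPM (11.9 to 18.9) in KO-labelled and 34.7 CPM (28.9 to 41.4) in WT-labelled tenocyte-like cells, a log2 ratio of -1.15 (-1.64 to -0.78); it was 1 of 7 past the floor, where 2.70% of 7004 genes were at least 2-fold lower and 5.83% in either direction. Its UMIs came from 59 KO-labelled and 102 WT-labelled cells, and with cells thinned to 2000 UMIs the ratio was -1.78. Within the class Hoxc10 was at 15.5 CPM in KO-labelled and 32.3 CPM in WT-labelled cells of the Thbs4 cluster and 11.7 CPM in KO-labelled and 43.1 CPM in WT-labelled cells of the Wif1 cluster, so it was lower labelled KO in both. In these cells 11 FAP markers summed to 13924 CPM labelled KO and 20296 CPM labelled WT, 10 myofibre markers to 1261 CPM labelled KO and 580 CPM labelled WT, and 10 endothelial markers to 349.9 CPM labelled KO and 189.9 CPM labelled WT, none of them at 0, and their part in the ratio was not tested. Hoxa3 was higher there, at 25.4 CPM in KO-labelled and 13.2 CPM in WT-labelled tenocyte-like cells with a log2 ratio of 0.90 (0.45 to 1.46), short of 2-fold. None of the 10 endothelial-like genes past the floor was 2-fold apart (1.63% of 6631 genes were), nor was any of 8 in pericyte-like (2.96%), 6 in satellite-like (5.90%), 6 in smooth muscle-like (1.14%), 2 in myofibre-like (2.01%) or 2 in glial-like cells (1.26%). The largest endothelial-like differences were in Hoxb7, -0.63 (-0.85 to -0.46), and Hoxb6, -0.59 (-0.76 to -0.45), while Hoxa5 was 0.30 (0.12 to 0.50). Perineurial-like, macrophage-like and T cell-like cells had no Hox gene past the floor.

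**Figure D5:**
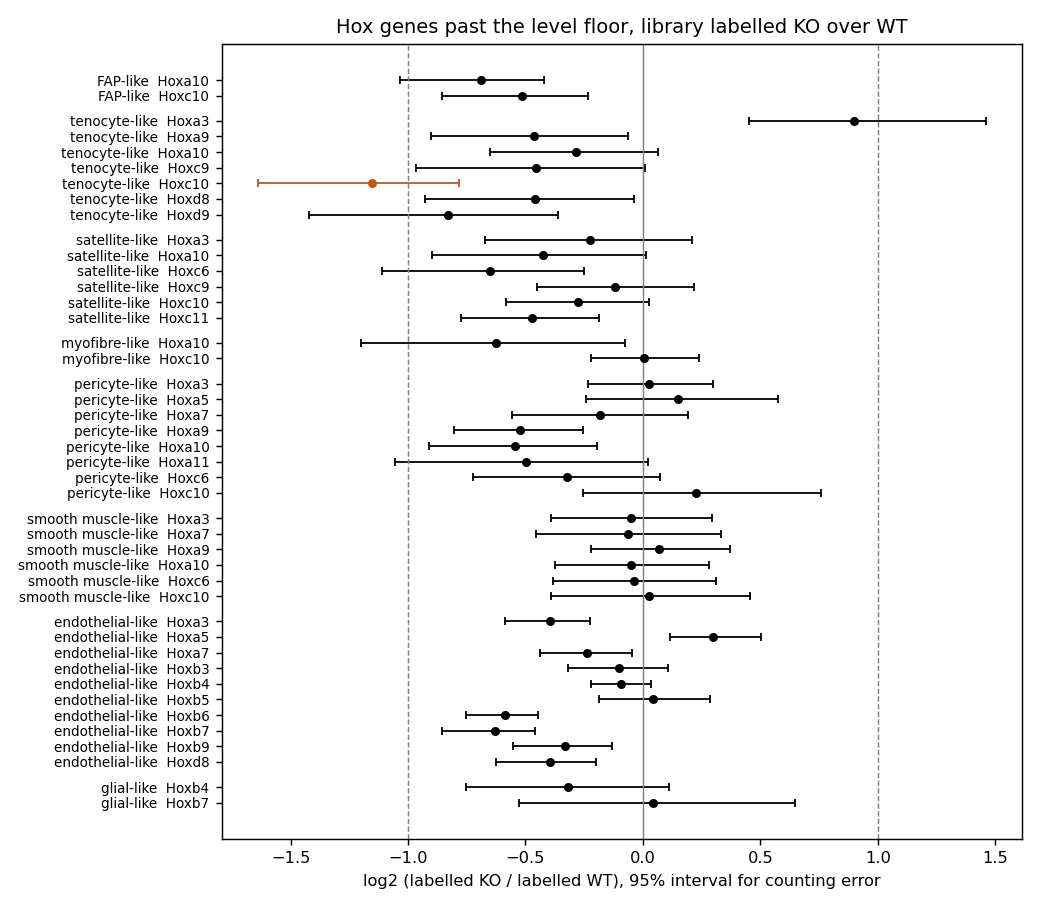
Log2 ratio (KO-labelled over WT-labelled library) for each Hox gene past the floor, by cell class, with 95% intervals for counting error; dashed lines mark 2-fold and the coloured point is past it. One gene lies past a dashed line, Hoxc10 in tenocyte-like cells (-1.15), and most points lie left of 0.

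In FAP-like cells HoxD was the cluster with the widest gap between libraries among HoxA, HoxC and HoxD, with a summed log2 ratio of -1.09 (-1.46 to -0.84), against -0.20 (-0.35 to -0.06) for HoxA and -0.56 (-0.75 to -0.39) for HoxC. The genes behind it were under the floor. Hoxd9 was at 2.97 CPM (2.05 to 4.18) in KO-labelled and 7.69 CPM (5.9 to 9.86) in WT-labelled FAP-like cells. Hoxd11 had 3 UMIs labelled KO, in 2 cells, and 30 UMIs labelled WT, in 22 cells, and stood at 0.27 CPM (0.0558 to 0.79) in KO-labelled and 3.72 CPM (2.51 to 5.31) in WT-labelled FAP-like cells. Hoxd10 had 0 UMIs labelled KO and 11 labelled WT. In tenocyte-like cells HoxD groups 9 to 13 summed to 18 CPM (14.5 to 22.1) in KO-labelled and 39.8 CPM (33.5 to 46.9) in WT-labelled tenocyte-like cells. In FAP-like cells that sum was 3.24 CPM (2.27 to 4.49) in KO-labelled and 12.9 CPM (10.5 to 15.6) in WT-labelled FAP-like cells. These genes were singled out after their values were seen, and no replicate library bears on the gap.

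The noncoding genes of the Hox clusters also differed between classes. These genes were picked from their list after their values were seen. Hotair, transcribed within HoxC beside Hoxc11, was highest at 7.35 CPM in KO-labelled and 12.5 CPM in WT-labelled satellite-like cells, the class where Hoxc11 was highest, and was at 0.901 CPM in KO-labelled and 2.23 CPM in WT-labelled FAP-like cells. Hotairm1, of HoxA, was at 58.1 CPM in KO-labelled and 65.7 CPM in WT-labelled pericyte-like cells and 47.7 CPM in KO-labelled and 52.6 CPM in WT-labelled endothelial-like cells. Halr1, also of HoxA, was at 44.4 CPM in KO-labelled and 34.8 CPM in WT-labelled endothelial-like cells and at most 6.73 CPM in the other classes. Hoxb3os was at 44.1 CPM in KO-labelled and 45.5 CPM in WT-labelled glial-like cells, above its 12.8 CPM in KO-labelled and 14.1 CPM in WT-labelled endothelial-like cells. Of the 23 listed genes 12 were in the files, and none passed the floor for the genotype ratio in FAP-like cells. The sources used here do not state how counting used strand, so the values of antisense genes are given as uncertain.

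TALE homeodomain proteins (Meis, Pbx and Pknox) bind DNA together with Hox proteins, and the classes differed in them too. Meis1 was at 30.4 CPM in KO-labelled and 34.4 CPM in WT-labelled FAP-like cells and 43.7 CPM in KO-labelled and 44.5 CPM in WT-labelled satellite-like cells, but at 0.40 CPM in KO-labelled and 0.212 CPM in WT-labelled endothelial-like cells. Pknox2 was at 64.4 CPM in KO-labelled and 75 CPM in WT-labelled FAP-like cells and 1.36 CPM in KO-labelled and 2.97 CPM in WT-labelled endothelial-like cells. Pbx3 was at 123 CPM in KO-labelled and 106 CPM in WT-labelled endothelial-like cells and 50.7 CPM in KO-labelled and 41.3 CPM in WT-labelled FAP-like cells, so this gene was not lower in endothelial-like cells as Meis1 and Pknox2 were. The list of 12 genes held the Meis, Pbx and Pknox genes with Tgif1, Tgif2 and Pbxip1, and 7 passed the floor in FAP-like cells. Of these 0 were 2-fold apart between libraries, where 6.17% of 7132 genes were, so a count of 0 is near that share. The median log2 ratio was -0.17, against 0.03 for all genes.

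Genes of hindlimb identity were low but not absent. Pitx1, which specifies hindlimb identity, was at 18.2 CPM in KO-labelled and 24.4 CPM in WT-labelled tenocyte-like cells and 2.7 CPM in KO-labelled and 6.45 CPM in WT-labelled FAP-like cells, and it was under 1 CPM in the other 9 classes of both libraries. Tbx4, the hindlimb T-box gene, was at 4.96 CPM in KO-labelled and 8.69 CPM in WT-labelled FAP-like cells, and at 5.03 CPM in KO-labelled and 5.22 CPM in WT-labelled satellite-like cells and 3.64 CPM in KO-labelled and 5.6 CPM in WT-labelled glial-like cells. Tbx5, its forelimb counterpart, was at 1.44 CPM in KO-labelled and 3.97 CPM in WT-labelled FAP-like cells and at most 0.734 CPM elsewhere. The limb mesenchyme genes Tbx15, Prrx1 and Shox2 were far above them, with Tbx15 at 189 CPM in KO-labelled and 222 CPM in WT-labelled FAP-like cells, Prrx1 at 155 CPM in KO-labelled and 208 CPM in WT-labelled FAP-like cells and Shox2 at 63.2 CPM in KO-labelled and 63 CPM in WT-labelled FAP-like cells. Of 28 limb genes 11 passed the floor in FAP-like cells, and none was 2-fold apart (median log2 ratio -0.23), where 6.17% of 7132 genes were. Of 18 genes that flank the clusters or are related homeobox genes 8 passed and 0 were 2-fold apart (median 0.04). Of 25 chromatin regulators of Hox genes 17 passed and 0 were 2-fold apart (median 0.03). With so few genes per list, counts of 0 are near the share over all genes.

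Per cell, Hox transcripts were sparse. With every cell thinned to 2000 UMIs, at least 1 Hox UMI was found in 47% (45.8 to 48.3) of 6238 KO-labelled and 54.1% (51.9 to 56.3) of 2031 WT-labelled endothelial-like cells. The same share was 24.6% (21.8 to 27.6) of 874 KO-labelled and 30% (27.4 to 32.6) of 1237 WT-labelled FAP-like cells. In T cell-like cells, taken as cells that should lack most Hox transcripts, it was 2.74% (0.751 to 6.87) of 146 KO-labelled and 2.9% (0.795 to 7.25) of 138 WT-labelled T cell-like cells. The bracketed ranges of these shares are exact Clopper-Pearson 95% intervals. A HoxC UMI was found in 25.3% (22.6 to 28.1) of 988 KO-labelled and 30.7% (27.2 to 34.3) of 674 WT-labelled satellite-like cells, against 0.208% (0.111 to 0.356) of 6238 KO-labelled and 0.148% (0.0305 to 0.431) of 2031 WT-labelled endothelial-like cells. For HoxC the T cell-like count was 0 of 146 labelled KO and 0 of 138 labelled WT, which allows up to 2.05% labelled KO and 2.17% labelled WT, a limit above the endothelial-like HoxC share. A Hoxc10 UMI was found in 28.6% (24.6 to 32.8) of 493 KO-labelled and 26.4% (20.8 to 32.6) of 231 WT-labelled myofibre-like cells. Thinning left out 883 KO-labelled and 1335 WT-labelled endothelial-like cells and 22 KO-labelled and 55 WT-labelled FAP-like cells that were shallower. Without thinning, 68.2% of KO-labelled and 60.8% of WT-labelled FAP-like cells had a Hox UMI, at a median of 12142 UMIs labelled KO and 5937 UMIs labelled WT, so that the order of the libraries in this share turned with thinning. The unthinned shares were 67.6% labelled KO and 56.9% labelled WT in endothelial-like cells, and 7.14% labelled KO and 7.48% labelled WT in T cell-like cells.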

How the data were processed

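Single-cell RNA-seq was measured with the 10x Genomics 3′ v4 kit in 1 library labelled KO and 1 library labelled WT. The deposited matrices hold raw UMI counts, which the authors produced by Cell Ranger 9.0.0 against mm10, per the submitters' processing notes, while the file headers name version 9.0.0 for the library labelled KO and 8.0.0 for the library labelled WT; whether intron reads were counted is not given in the sources used here. Of 33696 gene IDs 1735 were not in GENCODE M21, and all 39 Hox genes were.

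Barcodes with at least 500 genes, at most 10% mitochondrial UMIs and no Scrublet doublet call were kept, 17978 labelled KO and 10151 labelled WT. Doublet calls were 2.95% of barcodes labelled KO and 1.07% labelled WT, under the 7.81% labelled KO and 4.54% labelled WT that loading gives, so doublets remain. Cells of both libraries were clustered together (scanpy 1.11.5, igraph 0.11.9; 2000 variable genes, 30 components, 20 neighbours, Leiden resolution 1) without Hox genes. A cluster was named when the markers of 1 class led it. Raw UMIs were summed per class and library. Poisson, Clopper-Pearson and conditional binomial 95% intervals (scipy 1.17.1) cover counting error only and take no pseudocount. Log2 ratios add 1 CPM to each level, and a ratio was read for genes at 20 CPM in a group and 100 UMIs over the groups, with 2-fold as the call. With 1 library per genotype there is no test. The ratio calls were tested on simulated FAP-like counts with counting error only. The altered genes there lay above the level of any Hox gene in FAP-like cells. That simulation therefore does not bear on the Hox ratios or on differences between libraries.

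Genes at 20 CPM or more in a class were named with their leading classes and the range of the others, and the heat map draws each of their values. A few genes are not reported here. From the gene lists the rule names genes at 20 CPM in FAP-like cells and the limb-type genes. The members and the lists were chosen with earlier results of these data known. In all 30 alternatives and another 7 chosen after seeing the data were tried, TMM factors among them (edgeR 4.0.16).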

Additional observations from a re-analysis of the deposited data

Results flagged for a closer look

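Hox UMIs were also present in cells left out of every class, and these results were marked because they lie in data the comparisons do not use. A cluster of 2875 barcodes, all labelled KO, with a median of 1349 UMIs and led by Ftl1-ps1 and Hbb-bs, had a summed Hox level of 258 CPM from 1047 UMIs, of which HoxB genes gave 89.0 CPM and HoxA genes 104 CPM. No WT-labelled barcode fell in it, and Hoxb4 made up 6.97% (5.50 to 8.69, exact binomial) of its Hox UMIs. A cluster led by Pde11a and Grm8 had 177 CPM in 176 KO-labelled barcodes and 191 CPM in 249 WT-labelled barcodes. HoxA genes gave 119 CPM of its KO-labelled level and 101 CPM of its WT-labelled level, and HoxB genes 22.0 CPM labelled KO and 5.22 CPM labelled WT.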

How the results depend on the processing

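The 30 alternatives, and the other 7 chosen after seeing the data, covered the sign of only some log2 ratios. The ratio of the Hox sum kept its sign for FAP-like over endothelial-like cells in each library. It also kept its sign for KO-labelled over WT-labelled FAP-like cells, as did the ratio of Hoxc10 in tenocyte-like cells. Ratios of the other class pairs, and of the sums in the other classes, were not run again. For the other single genes a change of sign was not recorded. Orders did turn: perineurial-like cells fell below FAP-like cells in the summed level with TMM factors, and the share of FAP-like cells with a Hox UMI was lower labelled KO with thinning and higher labelled KO without it. Glial-like cells labelled WT reached down to 155 CPM among the alternatives, under every FAP-like value labelled WT. With 1 library per genotype no replicate can be left out. No paired analysis was possible because each group has 1 library. Over all alternatives the FAP-like sum ran from 134 to 151 CPM labelled KO and from 184 to 199 CPM labelled WT, and the FAP-like log2 ratio of KO-labelled over WT-labelled from -0.46 to -0.29. Thinning cells to 2000 UMIs gave sums of 151.0 CPM in FAP-like and 346 CPM in endothelial-like cells labelled KO, a FAP-like over endothelial-like log2 ratio of -1.19 labelled KO, and a FAP-like KO-labelled over WT-labelled ratio of -0.29; leaving out the F2rl1 sub-cluster, added after seeing the data, gave -0.30. Resolution 2 gave 320.2 CPM labelled KO and 394 CPM labelled WT in endothelial-like cells, and FAP-like over endothelial-like ratios of -1.17 labelled KO and -1.06 labelled WT. The endothelial-like class then held a different set of cells. A cluster led by Nebl (861 KO-labelled and 705 WT-labelled cells) and one led by Cytl1 (315 KO-labelled and 194 WT-labelled cells) were left without a class. TMM factors gave 383 CPM in endothelial-like cells labelled KO and 199 CPM in FAP-like cells labelled WT. The causes of these shifts were not tested. A threshold of 10 CPM in place of 5 CPM left 4 Hox genes in FAP-like cells, against 11. With no floor on level 3 Hox genes were 2-fold apart between libraries in FAP-like cells, Hoxd9, Hoxd10 and Hoxd11, against 0. The share of all genes 2-fold apart without a floor was not computed, so this count is not read as a result about HoxD. With 1000 UMIs per cell, fewer by construction, the share of cells with a HoxC UMI was 3.95% labelled KO and 7.48% labelled WT in FAP-like cells, and with a HoxB UMI 15.8% labelled KO and 20.2% labelled WT in endothelial-like cells. Of these main results under each alternative 71 were within counting error or 1.5 times and 17 moved, and of the other values 303 were and 42 moved. The perineurial-like class under a gate on each cell was not run, since too few cells remained. Shallower WT-labelled cells limit what can be read of genes under 5 CPM.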
